A study of Mus musculus with 6 samples.

Results

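The genes described here are 9 that are known as regulators or surface marks of hematopoietic stem cells and early progenitors. They encode the nuclear proteins *Mecom*, *Hlf*, *Mllt3* and *Hmga2*, the surface proteins *Procr*, *Slamf1*, *Cd34* and *Ly6a*, and the signaling protein *Fgd5*. They were chosen by symbol among the 39179 mouse genes listed in the count files, and all 9 passed the filter on low counts, as 15980 genes did in all. The bone marrow RNA of 3 *MxCDX2* mice and 3 control littermates was sequenced. *MxCDX2* mice carried *RsCDX2*, a *Rosa26* knockin from which human *CDX2* is transcribed once Cre has cut out a stop sequence, together with *Mx1Cre*, a Cre transgene driven by the interferon-inducible *Mx1* promoter and therefore not restricted to stem cells. The controls were 1 *RsCDX2* mouse, 1 *Mx1Cre* mouse and 1 wild-type mouse, so that each control genotype was a single animal. All 6 mice were 3 months old when they received poly(I:C), an inducer of interferon, as 3 injections at 10 µg per g, and RNA was taken 6 weeks later.

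Hematopoietic stem cells are rare bone marrow cells that renew themselves and give rise to all blood lineages, and they are recognized by combinations of surface proteins and of transcription factors rather than by any single gene. Several of the genes that mark them are also expressed elsewhere in the marrow. *Slamf1* is found on some megakaryocyte progenitors and lymphoid cells, *Procr*, *Cd34* and *Fgd5* in endothelial cells, and *Ly6a* on endothelial and lymphoid cells and after exposure to interferon. CDX2 is a homeobox transcription factor of the gut epithelium that normal adult blood cells do not use, and it is expressed in many human acute myeloid leukemias.

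Between 38646101 and 49899650 reads per mouse were counted on genes. Counts on mouse *Cdx2*, where reads of the human transgene could be counted, were 4, 0 and 0 in the *RsCDX2*, *Mx1Cre* and wild-type controls and 152, 155 and 183 in *MxCDX2* mice 1, 2 and 3. In a fit that takes the spread from the *MxCDX2* mice, the wild-type control differed from the other controls in 47 genes, 45 of them higher (2981 at an unadjusted p below 0.05), whereas the same contrast called 0 genes for the *RsCDX2* mouse (1057) and 0 for the *Mx1Cre* mouse (1112). The 47 became 256, 117 and 0 when *MxCDX2* mouse 1, 2 or 3 was left out of that fit. Each member is therefore given by control genotype, and members and lists are given with and without the wild-type mouse. Nothing in the sources used here says how the marrow was sorted or depleted before RNA extraction, and the summed markers of red cells, granulocytes, B cells, T cells, endothelium and stroma were above 0 in every mouse.

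Values below are normalized counts, in which the counts of each mouse were brought to a common library size by the TMM method. A gene was called when its absolute log2 fold change was above 1 and its adjusted p-value below 0.05 (quasi-likelihood test of edgeR, Benjamini-Hochberg over all tested genes). Fold changes are *MxCDX2* minus control on the log2 scale, with standard errors given as SE.

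Among the 9 genes, *Slamf1* was the one called lower in *MxCDX2* mice, where 9.03% of all tested genes were called lower, and 0 of 9 were called higher, against 4.59% of all tested genes. The 3 *MxCDX2* mice lay below all controls for 3 of the 9 genes, *Hlf*, *Hmga2* and *Slamf1*, against 20.7% of all tested genes. They lay above all controls for *Cd34* alone, against 21.4%, and the groups overlapped for the other 5. The fold change was negative for 8 of 9 genes, with a median of -0.76, and the median of all tested genes was 0. In these bulk samples fewer cells of a type and less RNA per cell cannot be told apart. For early progenitors gated as Lin-negative, Sca-positive and cKit-positive, the study's flow cytometry of *MxCDX2* marrow found a rise that was not significant. It also found slightly more multipotent progenitors, and fewer common lymphoid and megakaryocyte-erythroid progenitors.

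**Figure D1:**
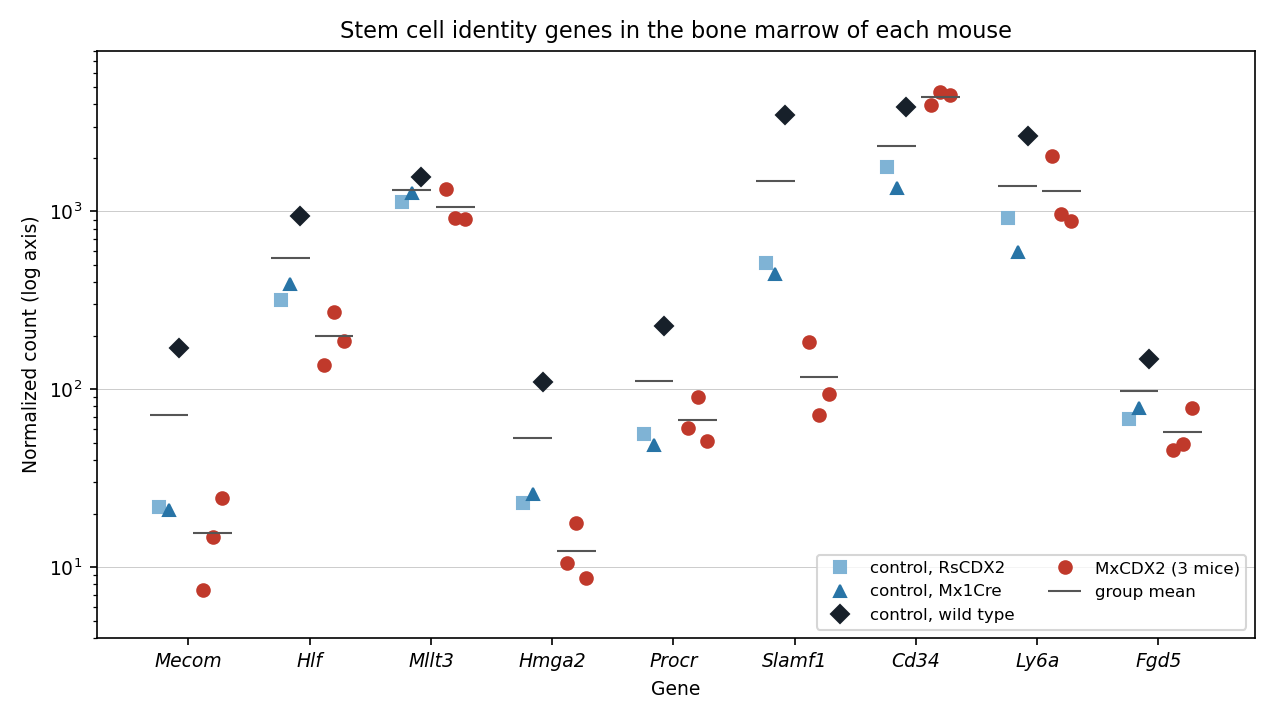
Normalized counts (log axis) of the 9 genes in each mouse, with the controls marked by genotype, *MxCDX2* mice as circles and group means as lines. The wild-type control is the highest of the 6 mice for every gene but *Cd34*, where the *MxCDX2* mice lie between 3965 and 4665.

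The wild-type mouse was the highest control for all 9 genes, where it was so for 41.2% of all tested genes. It exceeded each of the other controls more than 2 times for 7 of the 9, *Mecom*, *Hlf*, *Hmga2*, *Procr*, *Slamf1*, *Cd34* and *Ly6a*, where 8.80% of all tested genes did so. In the fit with 4 genotypes, which takes the spread from the *MxCDX2* mice and assumes that a lone control varies like them, 0 of 9 members passed as higher in the wild-type mouse (0.282% of all tested genes did). At an unadjusted p below 0.05, 7 of 9 were higher, against 10.8% of all tested genes. The *RsCDX2* and *Mx1Cre* contrasts called 0 of 9 members each, with 0 and 1 at an unadjusted p below 0.05, the 1 being *Cd34*, lower in the *Mx1Cre* mouse by a log2 difference of -0.95 (adjusted p = 0.584).

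Against the controls one by one, the mean of the *MxCDX2* mice was below the *RsCDX2* mouse for 6 of 9 genes, against 48.3% of all tested genes, and below the *Mx1Cre* mouse for 6 of 9, against 47.6%. It was below the wild-type mouse for 8 of 9, against 48.6%. *Procr*, *Cd34* and *Ly6a* were the genes with an *MxCDX2* mean above the *RsCDX2* and the *Mx1Cre* mouse, and of these *Cd34* alone was also above the wild-type mouse. With the wild-type mouse left out, 2 of the 9 members were called, *Slamf1* lower and *Cd34* higher, where 9.16% of all tested genes were called lower and 5.71% higher. Their median fold change was then -0.32, against 0.04 over all genes tested in that fit.

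**Figure D2:**
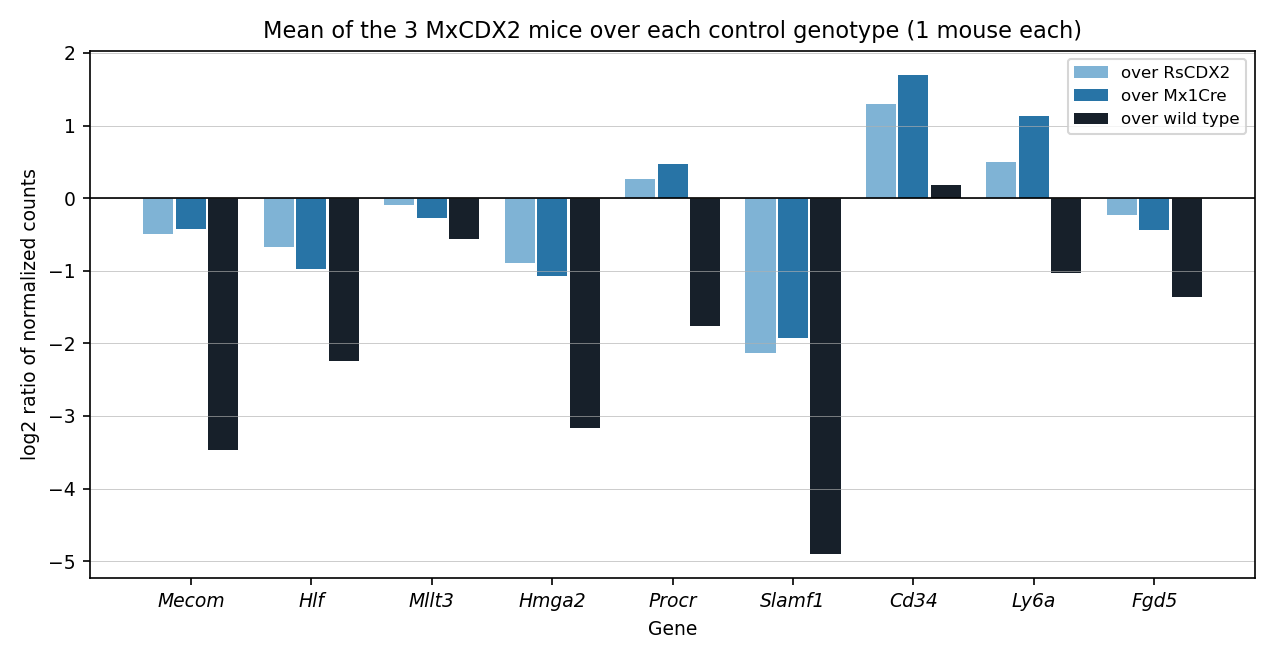
Log2 ratio of the mean normalized count of the 3 *MxCDX2* mice to that of each control mouse, 1 bar per control genotype. *Procr* and *Ly6a* have bars of opposite sign, from -1.76 over wild type to 0.47 over *Mx1Cre* for *Procr* and from -1.03 to 1.13 for *Ly6a*.

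Among the nuclear proteins, *Mecom* (ENSMUSG00000027684, chr3:29951296-30548008, minus strand, GRCm38) encodes a zinc finger transcription factor that stem cells need for their maintenance. It reached 21.7 normalized counts in the *RsCDX2*, 20.9 in the *Mx1Cre* and 171.4 in the wild-type control, and 7.42, 14.7 and 24.4 in *MxCDX2* mice 1, 2 and 3. The wild-type mouse was thus 8.05 times as high as the mean of the other controls, and the remaining 5 mice overlapped. The group means were 71.3 ± 86.7 (SD, n = 3) for control and 15.5 ± 8.51 (SD, n = 3) for *MxCDX2* mice, and the log2 fold change of -2.19 (SE 0.96, adjusted p = 0.151) did not pass. Leaving out the wild-type mouse gave -0.42 (SE 0.54, adjusted p = 0.613). *Mecom* had 7 to 188 reads per mouse, and its exons overlap those of the opposite-strand gene *Mecomos*.

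*Hlf* (ENSMUSG00000003949, chr11:90336536-90390895, minus strand) encodes a bZIP factor of the PAR family that is highly restricted to stem and early progenitor cells in blood. The 6 mice had 318.2, 389.2 and 942.7 in the *RsCDX2*, *Mx1Cre* and wild-type controls and 137.7, 271.4 and 186.3 normalized counts in *MxCDX2* mice 1, 2 and 3. All *MxCDX2* mice lay below all controls, with a gap between the highest of them and the *RsCDX2* mouse that was smaller than the range within either group. The log2 fold change of -1.47 (SE 0.48, adjusted p = 0.0715) did not pass in edgeR. DESeq2, the study's tool, gave -1.46 and an adjusted p of 0.00987, and called *Hlf*, *Hmga2* and *Slamf1* lower, 3 of 9 genes against 10.9% of all genes it tested. With the *RsCDX2* and *Mx1Cre* mice as the controls, the fold change of *Hlf* was -0.81 (SE 0.33, adjusted p = 0.126). The study lists *Hlf* among its deregulated genes from these same mice.

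*Mllt3* (ENSMUSG00000028496, chr4:87769925-88033364, minus strand), also known as AF9, encodes a reader of acetylated histones that binds the elongation machinery and the methyltransferase *Dot1l*, and its human counterpart is a frequent fusion partner of MLL in monocytic leukemia. Its normalized count was 1127, 1267 and 1554 in the *RsCDX2*, *Mx1Cre* and wild-type controls and 1334, 917 and 910.6 in *MxCDX2* mice 1, 2 and 3. The groups overlapped, with *MxCDX2* mouse 1 above the *RsCDX2* and *Mx1Cre* controls, and *Mllt3* varied by a factor of 1.38 within the control and 1.46 within the *MxCDX2* mice. The log2 fold change was -0.32 (95% confidence interval -0.81 to 0.17, adjusted p = 0.315), an interval that stays short of the threshold of 1 on both sides. It was -0.17 (SE 0.20, adjusted p = 0.587) when the wild-type mouse was left out.

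*Hmga2* (ENSMUSG00000056758, chr10:120361275-120476469, minus strand) encodes an architectural chromatin protein that is abundant in fetal stem cells, low in adult ones and restrained by let-7 microRNAs. In normalized counts, *Hmga2* had 23.0, 25.8 and 110.3 in the *RsCDX2*, *Mx1Cre* and wild-type controls and 10.6, 17.6 and 8.71 in *MxCDX2* mice 1, 2 and 3. Every *MxCDX2* mouse was below every control after normalization, on 10 to 18 reads in *MxCDX2* mice and 18, 26 and 121 reads in the controls. The log2 fold change was -2.11 (SE 0.72, adjusted p = 0.0826) in edgeR and -2.10 (adjusted p = 0.0223) in DESeq2, where it passed. Leaving out the wild-type mouse gave -0.97 (SE 0.44, adjusted p = 0.163). The study names *Hmga2* among its deregulated genes from these same mice. Its exons overlap those of an opposite-strand gene, *1700006J14Rik*.

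Among the surface proteins, *Slamf1* (ENSMUSG00000015316, chr1:171767127-171801184, plus strand), which encodes the SLAM family receptor CD150 used to isolate stem cells, had the largest fold change of the 9. It was counted, after normalization, at 509.9, 442.9 and 3488 in the *RsCDX2*, *Mx1Cre* and wild-type controls and 184.3, 71.5 and 94.0 in *MxCDX2* mice 1, 2 and 3. The highest *MxCDX2* mouse was thus well below the lowest control. The wild-type mouse was 7.32 times as high as the mean of the other controls, which in turn was 4.08 times as high as the mean of the *MxCDX2* mice. Group means of 1480 ± 1739 (SD, n = 3) for control and 116.6 ± 59.7 (SD, n = 3) for *MxCDX2* mice gave a log2 fold change of -3.67 (SE 0.93, adjusted p = 0.0347).

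The call on *Slamf1* held without the wild-type mouse, where the fold change was smaller and the error too, -2.02 (SE 0.41, adjusted p = 0.0194). It passed in each of the 3 fits that left out a control and in 0 of the 3 fits that left out an *MxCDX2* mouse, where the adjusted p was 0.0632, 0.114 and 0.122 without mice 1, 2 and 3. With the replicate number as a block the log2 fold change was -3.05 and the adjusted p 0.0561, so that 0 of 9 members were called.

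*Cd34* (ENSMUSG00000016494, chr1:194938819-194961279, plus strand) encodes a sialomucin of progenitors and endothelium, which in adult mice is low on the most dormant stem cells and higher on the progenitors that descend from them. It was the single member with a positive log2 fold change over all controls. Normalized counts of *Cd34* were 1779, 1352 and 3860 in the *RsCDX2*, *Mx1Cre* and wild-type controls and 3965, 4665 and 4512 in *MxCDX2* mice 1, 2 and 3. The *MxCDX2* mice differed by a factor of 1.18 among themselves and were on average 2.80 times as high as the mean of the *RsCDX2* and *Mx1Cre* mice, while the wild-type mouse was just below the lowest of them. Over all controls the log2 fold change was 0.91 (SE 0.37, adjusted p = 0.131) and did not pass. Leaving out the wild-type mouse gave 1.50 (SE 0.15, adjusted p = 0.00327), and *Cd34* was called higher. Omitting the *RsCDX2* mouse instead gave 0.77 (adjusted p = 0.28), and omitting the *Mx1Cre* mouse 0.64 (adjusted p = 0.241), neither passing. *Cd34* was not called when any single *MxCDX2* mouse was omitted either. The call thus rested on omitting the control with the highest *Cd34* count, a mouse singled out from these same data. The exons of *Cd34* overlap those of the opposite-strand gene *Gm16897*.

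*Slamf1* passed in edgeR with and without the wild-type mouse, and *Cd34* without that mouse alone. Both genes lie on the same chromosome and moved in opposite directions without that mouse. The 250 bases upstream of each start are therefore shown (RefSeq, GRCm38.p6, plus strand, chr1:171766882-171767131 for *Slamf1* and chr1:194938571-194938820 for *Cd34*). Capitals mark the letters CATAAA, a core that CDX proteins are known to prefer, and AGGAAG, a core of ETS factors, each on either strand. Searched for as well, on both strands, were AGATAA, a form of the core of GATA factors, and TGTGGT, a core that RUNX proteins bind.
Slamf1: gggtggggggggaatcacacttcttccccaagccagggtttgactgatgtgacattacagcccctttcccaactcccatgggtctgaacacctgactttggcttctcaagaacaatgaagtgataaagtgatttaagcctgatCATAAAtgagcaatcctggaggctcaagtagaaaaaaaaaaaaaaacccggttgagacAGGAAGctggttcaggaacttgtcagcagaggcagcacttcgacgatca
Cd34: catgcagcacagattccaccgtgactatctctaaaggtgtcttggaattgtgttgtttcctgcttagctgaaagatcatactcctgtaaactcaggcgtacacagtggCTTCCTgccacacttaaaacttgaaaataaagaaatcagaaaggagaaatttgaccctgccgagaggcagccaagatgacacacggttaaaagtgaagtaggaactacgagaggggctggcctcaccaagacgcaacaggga
The *Slamf1* window held a CDX match that begins 107 bases before the start and an ETS match at 49 bases, and the *Cd34* window an ETS match at 142 bases. Over the 8 members with a RefSeq window, *Ly6a* having none, and counting *Mecom* and *Mllt3* with 2 windows each, the CDX letters occurred in that of *Slamf1* alone and the ETS letters also in that of *Fgd5*. The letters AGATAA and TGTGGT were in no member's window on either strand. Other forms of these cores, such as the TGATAA in the *Slamf1* window, were not searched for. Of 32851 upstream windows of the same length, 10.8% held the CDX letters, 9.99% the GATA, 14.0% the RUNX and 29.5% the ETS letters.

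*Procr* (ENSMUSG00000027611, chr2:155751117-155755471, plus strand) encodes the endothelial protein C receptor, one of the most selective surface marks of long-term stem cells. *Procr* had normalized counts of 56.2, 48.7 and 227.9 in the *RsCDX2*, *Mx1Cre* and wild-type controls and 60.4, 90.1 and 51.4 in *MxCDX2* mice 1, 2 and 3. The *MxCDX2* mice thus lay around the *RsCDX2* and *Mx1Cre* mice and below the wild-type mouse. The log2 fold change was -0.73 (SE 0.65, adjusted p = 0.471) with all controls and 0.38 (SE 0.36, adjusted p = 0.481) without the wild-type mouse.

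*Ly6a* (ENSMUSG00000075602, chr15:74994877-74998031, minus strand) encodes Sca-1, the GPI-anchored protein by which early progenitors are gated in mice. *Ly6a* stood at 918.8, 591.8 and 2656 in the *RsCDX2*, *Mx1Cre* and wild-type controls and 2051, 962 and 882.7 normalized counts in *MxCDX2* mice 1, 2 and 3. *MxCDX2* mouse 1 was 2.32 times as high as mouse 3, and the groups overlapped. The log2 fold change was -0.10 (95% confidence interval -1.53 to 1.33, adjusted p = 0.926) with all controls and 0.80 (SE 0.43, adjusted p = 0.223) without the wild-type mouse, and the first interval takes in changes past the threshold of 1 in both directions. *Ly6a* responds to interferon. Of 13 interferon response genes *Mx1* (2.69) was called higher and *Isg15* (-1.71) and *Rsad2* (-2.93) lower in *MxCDX2* mice, and the list summed to 873.0 to 1397 CPM (counts scaled to the TMM-adjusted library size of each mouse) in control and 659.5 to 921.4 in *MxCDX2* mice. *Rsad2*, the gene of the list with the highest mean CPM, had 17400 to 26030 normalized counts in control and 2294 to 4372 in *MxCDX2* mice. The median log2 fold change of the list was 0.29, and 0.71 without the wild-type mouse. That mouse was the highest control for 11 of the 13 genes. The list held 2 higher and 2 lower calls without the wild-type mouse. The part of interferon in the values of *Ly6a* was not tested.

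*Fgd5* (ENSMUSG00000034037, chr6:91978878-92076004, plus strand) encodes an exchange factor for the GTPase Cdc42, and reporter alleles of it label stem cells. Its normalized count was 67.7, 78.4 and 147.7 in the *RsCDX2*, *Mx1Cre* and wild-type controls and 45.6, 49.0 and 78.4 in *MxCDX2* mice 1, 2 and 3. *MxCDX2* mice 1 and 2 lay below all controls and mouse 3 at the level of the *Mx1Cre* mouse. The log2 fold change was -0.76 (SE 0.41, adjusted p = 0.234) with all controls and -0.32 (SE 0.35, adjusted p = 0.538) without the wild-type mouse.

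**Figure D3:**
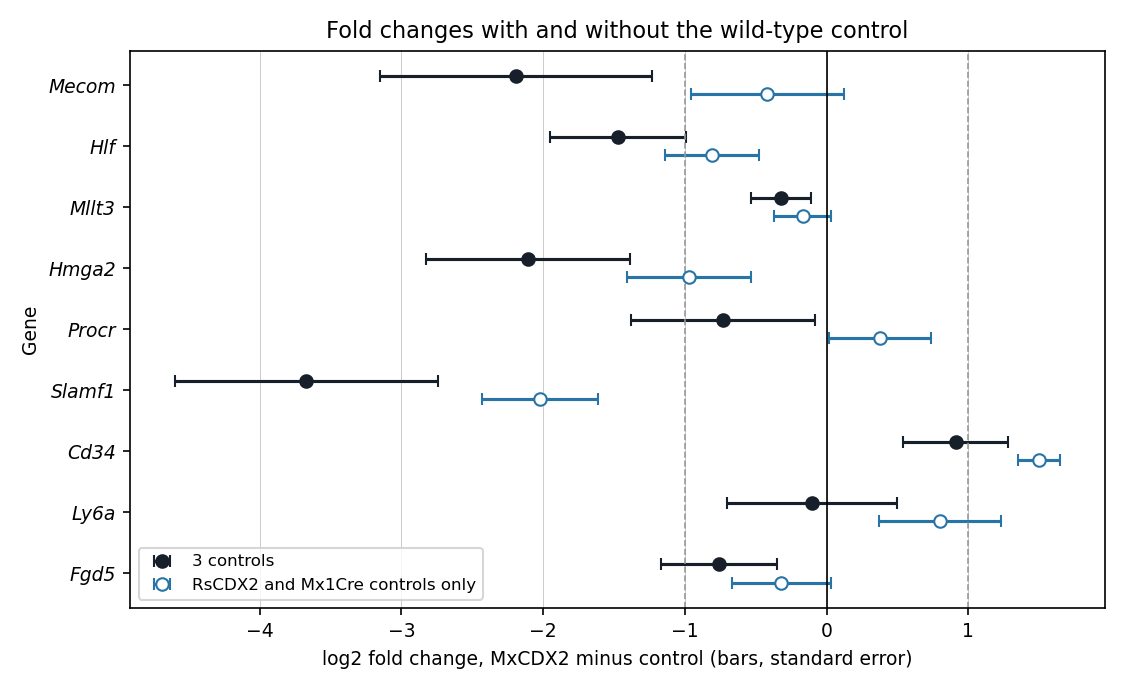
Log2 fold changes of the 9 genes (points) with standard errors (bars), for 3 controls (filled) and without the wild-type control (open). Dashed lines mark the fold change threshold of 1, *Slamf1* lies beyond it with either set of controls (-3.67 and -2.02), and *Cd34* in the second alone (0.91 and 1.50).

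To compare genes with each other, counts were divided by the length of the exons and scaled to the same sum in each mouse, as in TPM values. On this scale *Ly6a* was the highest of the 9 in every mouse, at 70.3 ± 56.1 (SD, n = 3) in control and 65.7 ± 33.0 (SD, n = 3) in *MxCDX2* mice. *Cd34* followed at 19.5 ± 11.2 in control and 36.6 ± 3.08 in *MxCDX2* mice. *Slamf1* came next in control mice by its mean, 14.7 ± 17.2, and behind *Procr* and *Hlf* in *MxCDX2* mice, 1.16 ± 0.591.

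*Mllt3* (6.69 ± 1.11 and 5.35 ± 1.23 in control and *MxCDX2* mice), *Hlf* (5.02 ± 3.12 and 1.81 ± 0.618) and *Procr* (3.33 ± 3.04 and 2.02 ± 0.609) lay in the middle. *Fgd5* (0.949 ± 0.421 and 0.559 ± 0.175), *Hmga2* (0.478 ± 0.447 and 0.111 ± 0.0424) and *Mecom* (0.350 ± 0.425 and 0.0760 ± 0.0418) were the lowest. In control mice the ranges of neighbours in this order overlapped except between *Procr* and *Fgd5*. In *MxCDX2* mice they were apart between *Ly6a* and *Cd34*, *Cd34* and *Mllt3*, *Mllt3* and *Procr*, and *Fgd5* and *Hmga2*, and overlapped between *Procr*, *Hlf*, *Slamf1* and *Fgd5* and between *Hmga2* and *Mecom*.

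Other regulators of early progenitors were read from a list of 28, of which 24 were tested and the other 4 had too few counts, 2 were called higher and 4 lower, with a median log2 fold change of -0.50. *Meis1*, a homeobox cofactor of HOX proteins, fell by 2.32 on the log2 scale (adjusted p = 0.0434), *Gfi1b*, a repressor needed for red cells and platelets, by 3.13 (adjusted p = 0.00412), *Satb1*, a chromatin organizer of lymphoid progenitors, by 1.40 (adjusted p = 0.00663) and *Msi2*, an RNA-binding protein, by 1.22 (adjusted p = 0.0163). *Prdm16*, a relative of *Mecom*, rose by 1.54 (adjusted p = 0.0395) and *Cdkn1c*, an inhibitor of the cell cycle, by 2.08 (adjusted p = 0.0301). The HOX genes *Hoxa7* (-1.69), *Hoxa9* (-1.71) and *Hoxa10* (-1.59) and the zinc finger factor *Gata2* (-1.21) did not pass (adjusted p from 0.0567 to 0.0911), while *Hoxb4* at 0.93 (adjusted p = 0.0366), with every *MxCDX2* mouse above every control, and *Runx1* at 0.79 and *Lyl1* at 0.78 missed the fold threshold. The study names *Meis1*, *Gfi1b*, *Gata2*, *Satb1*, *Prdm16*, *Hoxa7*, *Hoxa9* and *Hoxa10* from the same mice, so that their direction here is no independent evidence. Leaving out the wild-type mouse moved the median to -0.06, with 3 genes called higher and 3 lower. *Meis1*, at 446.0, 406.1 and 1936 normalized counts in the *RsCDX2*, *Mx1Cre* and wild-type controls, then had a log2 fold change of -1.18 (adjusted p = 0.00876), and *Msi2* missed the fold threshold.

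Of 15 surface genes of early progenitors, all tested, 1 was called higher and 6 lower, with a median of -1.77. Among the latter, *Esam* fell by 2.96 on the log2 scale (adjusted p = 0.0472), *Pdzk1ip1* by 2.01 (adjusted p = 0.00193), *Cd9* by 1.97 (adjusted p = 0.00591), *Robo4* by 1.66 (adjusted p = 0.0292) and *Ifitm1* by 1.65 (adjusted p = 0.0308). *Esam* and *Robo4* are known from endothelium and *Cd9* from megakaryocytes as well as from stem cells. *Cd93*, a receptor of early progenitors and myeloid cells, rose by 1.38 (adjusted p = 0.0115). *Kit*, the receptor for stem cell factor, had 3743 to 4098 normalized counts in control and 2306 to 2578 in *MxCDX2* mice, and its log2 fold change of -0.69 (adjusted p = 0.00459) missed the fold threshold. Without the wild-type mouse 2 were called higher and the same 6 lower, with a median of -0.83. *Esam*, at 535.4, 425.0 and 3230 normalized counts in the *RsCDX2*, *Mx1Cre* and wild-type controls, then had a log2 fold change of -1.40 (adjusted p = 0.0208) and *Robo4* one of -1.19. The wild-type mouse was the highest control for 14 of the 15 surface genes, against 41.2% of all tested genes. It exceeded each other control more than 2 times for 10 of them, against 8.80%, and 3 passed as higher there.

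Of 31 relatives of the 9 genes, all tested, 4 were called higher and 4 lower, with a median of 0.13, and 4 and 3 without the wild-type mouse, with a median of 0.40. Several are receptors of the SLAM family. *Cd48*, carried by most mature and committed blood cells and lacking on stem cells, rose from 2315, 2712 and 3536 normalized counts in the *RsCDX2*, *Mx1Cre* and wild-type controls to 7202, 8303 and 8112 in *MxCDX2* mice (log2 fold change 1.46, adjusted p = 0.00296). The groups did not overlap. *Slamf6* fell by 1.78 (adjusted p = 0.0183). *Cd244a*, *Cd84*, *Ly9*, *Slamf7*, *Slamf8* and *Slamf9* had log2 fold changes between -0.42 and 0.69 and did not pass.

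In the Ly6 family, *Ly6c2* rose by 2.06 (adjusted p = 0.00268) and *Ly6c1* by 1.05 (adjusted p = 0.0234), close copies of each other whose reads the counting could have split or dropped. *Ly6d* (-2.04, adjusted p = 0.0332), *Ly6g* (-1.88, adjusted p = 0.00166) and *Ly6k* (-1.67, adjusted p = 0.0458) fell, whereas *Ly6a* itself did not pass. The call on *Ly6k* was lost without the wild-type mouse (-1.42, adjusted p = 0.0838). These encode marks of monocytes (*Ly6c2*), of B cell progenitors (*Ly6d*) and of neutrophils (*Ly6g*). *Hmga1*, the nearest relative of *Hmga2*, had a log2 fold change of 0.42 (adjusted p = 0.152), *Mllt1*, that of *Mllt3*, 0.14 (adjusted p = 0.407), and *Tef* and *Dbp*, those of *Hlf*, 0.09 and -0.26 (adjusted p = 0.779 and 0.673).

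Of 6 genes around *Hmga2* in the fetal let-7 axis, 4 were tested and *Lin28a*, an inhibitor of let-7 processing, was called lower, with 3296, 3627 and 2012 normalized counts in the *RsCDX2*, *Mx1Cre* and wild-type controls and 1383, 1519 and 1119 in *MxCDX2* mice (log2 fold change -1.15, adjusted p = 0.0181). *Lin28b* had 0 counts in every mouse, and *Igf2bp1* at most 2 normalized counts. The median of the 4 was -0.67, and -0.57 without the wild-type mouse, where *Lin28a* was again the gene called. Of 11 partners of *Mllt3* in elongation and histone methylation, *Ell2* (-2.03, adjusted p = 0.00892) and *Aff3* (-1.62, adjusted p = 0.0195) fell and the other 9, *Dot1l* (-0.39, adjusted p = 0.0998) among them, did not pass. The median was -0.32 with and without the wild-type mouse. *Lin28a*, *Ell2* and *Aff3* are also on the study's list of deregulated genes from these same mice.

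Markers of other cells varied across the same mice. All 14 megakaryocyte markers were more than 2 times as high in the wild-type mouse as in each other control, and 7 of them passed as higher there. Their summed CPM values were 1008, 728.9 and 8237 in the *RsCDX2*, *Mx1Cre* and wild-type controls and 430.4, 297.7 and 403.4 in *MxCDX2* mice 1, 2 and 3. The 6 mice ranked as they did for *Slamf1*, with the wild-type mouse far above the other controls and these above the *MxCDX2* mice. In *MxCDX2* mice 5 of the 14 were called lower than in controls, with a median of -3.34, and 8 without the wild-type mouse, with a median of -1.32. The platelet chemokine *Ppbp* and the integrin *Itga2b*, the most abundant of the list, had log2 fold changes of -3.62 (adjusted p = 0.0519) and -2.58 (adjusted p = 0.0799) and did not pass, and *Mpig6b* fell by 5.58 (adjusted p = 0.0309).

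Endothelial cells also express several of the members. The 10 endothelial markers summed to 90.9, 79.2 and 222.6 CPM in the *RsCDX2*, *Mx1Cre* and wild-type controls and to between 42.7 and 60.5 in *MxCDX2* mice, and 3 of them were called lower. The wild-type mouse was the highest control for all 10. It exceeded each other control more than 2 times for 7 of them, and 0 passed as higher there. *Tie1* had a log2 fold change of -0.98 and *Sox18* one of -1.99, neither passing (adjusted p = 0.233 and 0.0634), while *Stab2* fell by 1.96 (adjusted p = 0.0167). When the wild-type mouse was left out the median went from -1.36 to -0.68 and 1 marker was called, *Stab2* (-1.39, adjusted p = 0.00924). No megakaryocyte or endothelial marker was at 0 in every mouse. What part megakaryocytic or endothelial cells had in the levels of *Slamf1*, *Mecom*, *Procr*, *Fgd5* and *Cd34* was not tested.

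**Figure D4:**
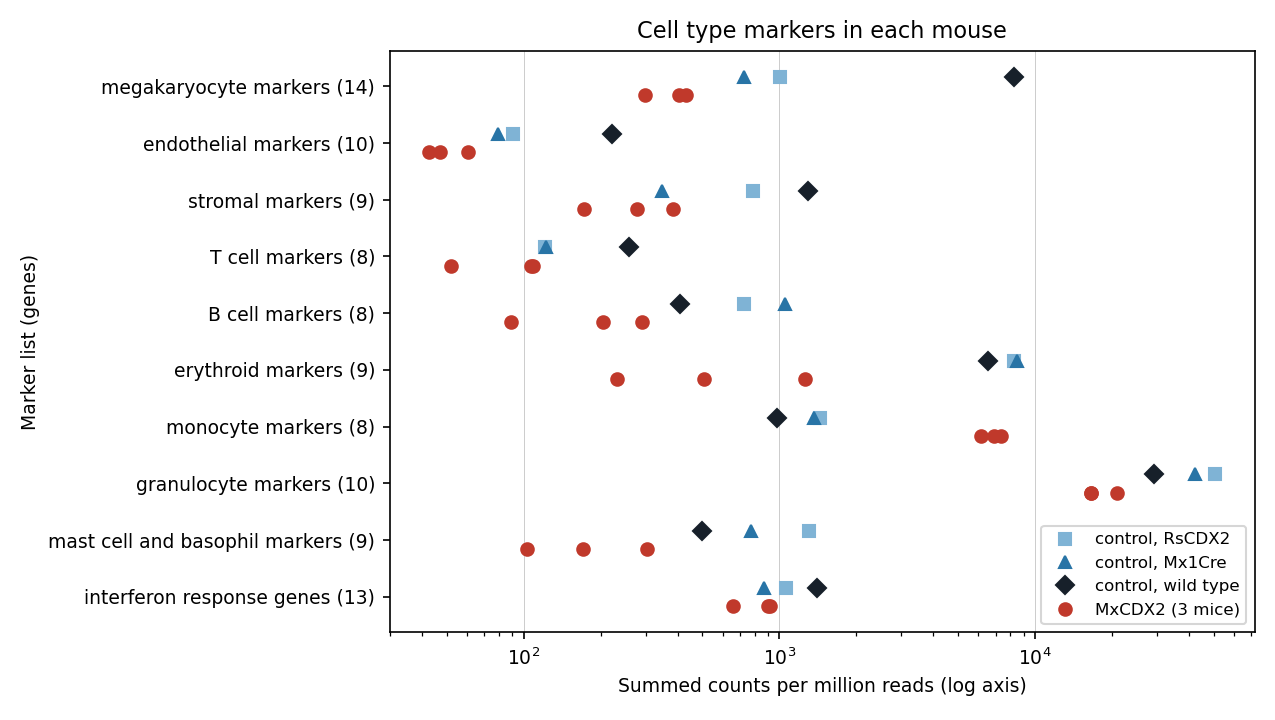
Summed CPM (log axis) of each marker list in each mouse, controls by genotype and *MxCDX2* mice as circles. The wild-type control is at 8237 for megakaryocyte markers, against 728.9 and 1008 in the other controls, and *MxCDX2* mice are above all controls for monocyte markers alone.

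Of 9 erythroid markers 9 were called lower (*Slc4a1* -3.40 and *Alas2* -3.96 on the log2 scale), and their summed CPM values were 6554 to 8504 in control and 231.9 to 1260 in *MxCDX2* mice. Of 8 monocyte markers 5 were called higher (*F13a1* 3.06 and *Ly6c2* 2.06), with sums of 976.4 to 1436 against 6131 to 7335. Of 10 granulocyte markers 4 were called lower (*S100a8* -1.53 and *Retnlg* -2.41) and *Ctsg* (2.32) higher, *Ngp* (-1.06) did not pass, and the sums were 29160 to 50620 against 16520 to 20930. *Elane* (-0.31), *Mpo* (0.31) and *Prtn3* (0.78), which like *Ctsg* encode proteins of primary granules, did not pass either. All 3 were lowest among controls in the wild-type mouse. *Elane* had 44870, 37490 and 5981 normalized counts in the *RsCDX2*, *Mx1Cre* and wild-type controls. Without that mouse the log2 fold changes were -0.77 for *Elane* (adjusted p = 0.0267), -0.11 for *Mpo* and 0.39 for *Prtn3*, and none passed. By flow cytometry the study reported an expansion of immature neutrophils in *MxCDX2* marrow. Leaving out the wild-type mouse gave 9 lower calls for the erythroid, 5 higher for the monocyte and 6 lower and 1 higher for the granulocyte list, *Ngp* (-1.28, adjusted p = 0.0148) being among the 6. What part erythroid, monocytic or granulocytic cells had in the levels of the members was not tested.

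All calls in the remaining marker lists were lower in *MxCDX2* mice. Of 8 B cell markers 4 were called lower (*Cd79b* -1.71, *Cd79a* -2.01 and *Ms4a1* -2.41), with sums of 408.8 to 1053 in control and 88.98 to 289.8 in *MxCDX2* mice, and 7 were called lower without the wild-type mouse. Of 8 T cell markers *Cd4* (-2.64) was called lower and *Tcf7* (-0.59) was not, with sums of 121.3 to 257.4 against 52.05 to 109.1, and *Cd4* (-1.92) was again the 1 call without the wild-type mouse. The 9 stromal markers had 2 lower calls, *Cxcl12* (-1.81) among them, while *Spp1* (-1.22) and *Lepr* (-1.97) did not pass, and summed to 346.5 to 1293 against 172.7 to 384.6. Without the wild-type mouse the stromal list had 1 lower call, and *Cxcl12* (-1.23, adjusted p = 0.0802) lost its own. Of 8 tested mast cell and basophil markers 5 were called lower (*Prss34* -1.98), *Hdc* (-2.74) and *Cma1* (-3.84) were not, and the 9 of the list summed to 497.2 to 1306 against 102.9 to 303.6. The 5 calls became 3 when the wild-type mouse was left out, *Prss34* (-1.96) among them.

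The genes whose profile over the 6 mice was most like that of a member were sought among 12158 protein-coding genes with a mean of at least 1 CPM, by the root mean square difference of centred log2 CPM. The profiles share the mice and the contrast between the groups. For *Slamf1* these were *Pde3a*, *Ttll11* and *Plxna4* (differences of 0.12, 0.17 and 0.20), each called lower, with log2 fold changes of -3.64, -4.12 and -3.57 and a wild-type mouse far above the other controls. For *Cd34* they were *Ncs1*, *Prelid2* and *Kdelc2* (0.06, 0.07 and 0.08), with log2 fold changes of 0.86, 0.99 and 0.91, none of which passed.

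For *Mecom* the nearest were *Il1a*, *Nrgn* and *Angpt1* (0.17, 0.18 and 0.21), for *Hlf* *Il18*, *Ccdc62* and *Pth1r* (0.10, 0.13 and 0.21), and for *Hmga2* *Pacsin1*, *Hoxa9* and *Havcr1* (0.22, 0.23 and 0.24). *Il18* had 288, 303 and 719 normalized counts in the *RsCDX2*, *Mx1Cre* and wild-type controls and 104, 225 and 165 in *MxCDX2* mice, which is the order of *Hlf* mouse by mouse. Of these 9 genes *Pacsin1* was called, lower by 2.36 (adjusted p = 0.0426). *Mllt3* was nearest to *Tuft1*, *Ppp1r12b* and *Ubxn2a* (0.07, 0.08 and 0.10), *Procr* to *Armcx1*, *Clba1* and *Asap2* (0.15, 0.23 and 0.24), *Ly6a* to genes that include *H2-Q7* and *H2-Q6* (0.19 and 0.21), and *Fgd5* to *Cldn5*, an endothelial junction gene, *Itm2a* and *D630045J12Rik* (0.14, 0.18 and 0.18). None of the genes named for these 4 members was called. *H2-Q7* and *H2-Q6* are close copies, so their separate values are uncertain.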

How the data were processed

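RNA from the bone marrow of 3 *MxCDX2* and 3 control mice was sequenced as stranded poly(A) libraries. Per the labels, the authors used STAR 2.5 and the GRCm38 genome for alignment and HTSeq 0.6.1 for counting, and deposited raw counts, 1 file per mouse. The strand setting of the counting is not given in the sources used here, so *Mecom*, *Hmga2* and *Cd34* may share reads with overlapping opposite-strand genes. The 5 HTSeq summary rows (reads outside genes, 9.22 to 14.06% of counted reads in the largest) were left out. Names and positions came from GENCODE M21, which held 37607 of the 39179 identifiers, and 25488 genes had at least 1 count.

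Differential expression was tested with edgeR 4.0.16 under R 4.3.3 (TMM, filterByExpr, glmQLFit, glmQLFTest), tested on simulated data first. Control genotypes were contrasted in a fit with 4 genotype groups, each control against the mean of the others on the log scale. DESeq2 1.42.0, limma 3.58.1 (voom) and the settings listed under the limits were alternatives, and Python 3.11.15, pandas 2.3.3, numpy 2.4.6 and matplotlib 3.10.9 were used for lists and plots. Log2 CPM used a prior count of 2. The labels give separate mice, and an exact permutation test of 3 against 3 cannot go below p = 0.10. After group means were subtracted, mice with the same number correlated across genes at 0.169, 0.286 and 0.182, against a mean of -0.107 for other pairs. Control numbers come from the order in the labels.

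The members, lists and named genes were chosen with earlier results of these data known. Named were the 9 members, the genes of the progenitor, relative, *Hmga2* and *Mllt3* lists that passed or were needed to say what did not, of each marker list the 2 most abundant and the one with the largest fold change, and the 3 genes most like each member. Other named genes were chosen after their values were seen, and some genes that this rule names are not reported here.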

Additional observations from a re-analysis of the deposited data

How the results depend on the processing

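The 1 member called among all 9 became 3 with DESeq2 and 0 with limma voom (*Slamf1* adjusted p = 0.115), an adjusted p below 0.01, glmTreat with a minimum log2 change of 1 (*Slamf1* adjusted p = 0.128) and the replicate block, which changed no other member's call. With 1 mouse left out it ranged from 0 to 2, the 0 being without *MxCDX2* mouse 1, 2 or 3. Calls over all genes, 2177, became 1043 below an adjusted p of 0.01, 611 with glmTreat and 2205 with the block, and ranged from 1205 (without *MxCDX2* mouse 3) to 2406 with 1 mouse left out. *Ly6a* turned positive with limma voom (0.04) and the block (0.13) and ranged from -0.59 to 0.80 with 1 mouse left out, and *Procr* from -1.08 to 0.38, positive without the wild-type mouse. The other 7 members kept their direction in every setting, *Mecom* being untested with at least 10 counts required in every mouse.

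Genes called in the wild-type contrast, 47, became 158 when every gene with at least 1 count was kept, with 1 member (*Cd34*, adjusted p = 0.0426), and 256, 117 and 0 without *MxCDX2* mouse 1, 2 and 3, with 3 members (*Slamf1*, *Cd34* and *Ly6a*), 0 and 0. Scaling by total counts moved the median of all genes by 0.12. The spread between single control animals, least for *Mllt3*, and for *Mecom* and *Hmga2* the number of reads, limits what can be told. Genotype and individual cannot be told apart among controls. The cause of the changes was not tested.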
